A study of Mus musculus with 2 samples.

Results

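Checkpoint ligands and macrophage evasion signals are the surface proteins and enzymes with which a tumour cell can hold back the immune cells that touch it. The set comprised 10 genes, taken by symbol from the 51912 Ensembl genes of the deposited table: Cd47, Cd24a, Cd274, Pdcd1lg2, Cd276, Vtcn1, Pvr, Nectin2, Nt5e and Entpd1. All 10 had a row. Of these, 6 were detected, that is, had a mean of at least 1 TPM over both libraries (TPM is a length-normalised transcript abundance that sums to the same total in each library). Messenger RNA was sequenced from 4T1 cells, a mouse mammary carcinoma line, in 2 conditions. The co-culture cells had spent 3 days in the lower chamber of a transwell below an upper chamber of M2 macrophages, which are macrophages in an alternatively activated state. The control cells were 4T1 cells without macrophages, and the labels do not say whether their upper chamber was empty. Each condition had 1 library, so no difference has a replicate check, no test was made, and all values are single measurements of these libraries. The title of the co-culture library reads 4T2 where its treatment label and its table column read 4T1, and the treatment label was followed.

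CD47 binds SIRPα on macrophages and inhibits engulfment. CD24 does the same through a sialic acid-binding receptor, Siglec-10 in humans, whose mouse counterpart is Siglec-G. PD-L1 (Cd274) and PD-L2 (Pdcd1lg2) engage PD-1 on T cells, and B7-H3 (Cd276) and B7-H4 (Vtcn1) belong to the same B7 family. PVR (CD155) and nectin-2 (CD112) bind the inhibitory receptor TIGIT and the activating receptor CD226 on T and NK cells. CD39 (Entpd1) and CD73 (Nt5e) act in sequence on extracellular nucleotides, CD39 turning ATP into AMP and CD73 turning AMP into adenosine, which dampens immune cells.

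Of the listed keratin genes only Krt8 and Krt18 had high levels, and most immune cell markers were at or near 0. Of 11 epithelial markers 4 were detected. Krt8 had 630 TPM in co-culture and 548 TPM in the control. The values of Krt18 were 484 TPM in co-culture and 439 TPM in the control. Krt19 was detected at a low level, with 2.64 TPM in co-culture and 0.18 TPM in the control. Krt14 had 0.32 TPM in co-culture and 0.23 TPM in the control. Krt5, Epcam and Esrp1 were listed at 0 in both libraries. Cdh1 had 0.01 TPM in co-culture and 0.04 TPM in the control. Of 18 macrophage markers 2 were detected, Cd68 and Cd14, 9 were at 0 in both libraries (among them Ptprc, Adgre1, Tyrobp and C1qa), and the summed level of the list was 40.6 TPM in co-culture and 66.9 TPM in the control. None of 11 M2 markers and none of 11 T, NK and B cell markers was detected. The highest M2 markers were Egr2, at 1.49 TPM in co-culture and 0.15 TPM in the control, and Ccl17, at 0.98 TPM in co-culture and 0.53 TPM in the control. Egr2 was above 1 TPM in the co-culture library alone, and its mean fell under the limit. The highest levels in the remaining marker lists were those of S100a8 among granulocyte and dendritic cell markers, at 4.66 TPM in co-culture and 0.60 TPM in the control, and of Pdgfra among fibroblast markers, at 10.2 TPM in co-culture and 5.60 TPM in the control. No endothelial marker was detected.

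Cd47 was the most abundant of the 10 genes, PVR and nectin-2 transcripts followed, and the transcripts of both PD-1 ligands were scarce or not found. The order of the levels was the same in both libraries for the 7 genes above 0: Cd47, Pvr, Nectin2, Cd276, Cd24a, Nt5e and Cd274. Pdcd1lg2, Vtcn1 and Entpd1 were listed at 0 in both. Between the libraries 5 of the 6 detected genes had higher values in co-culture and 1, Cd47, had a lower value. Over all detected genes 64.5% had higher values, so a majority of higher genes does not set the group apart. The median log2 ratio of the 6 genes was 0.54, against 0.17 for the 11258 detected genes. Ratios were computed as log2((co-culture TPM + 1)/(control TPM + 1)).

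**Figure D1:**
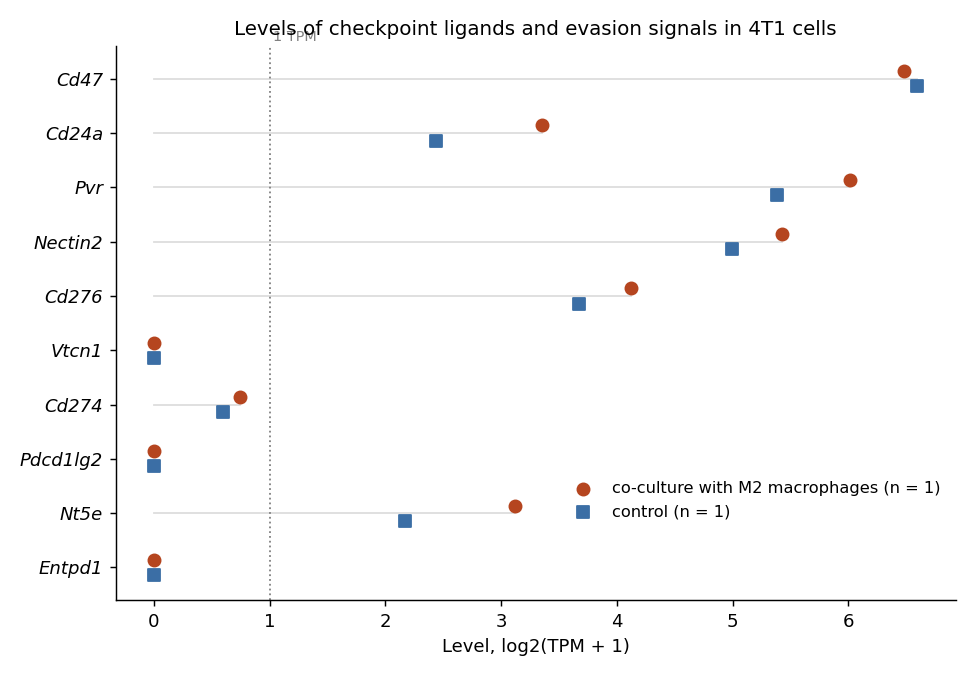
Level of each gene as log2(TPM + 1) in the co-culture library (circles) and the control library (squares), 1 library each. The dotted line marks 1 TPM; Cd47 lies farthest to the right, Cd274 lies left of the line, and Vtcn1, Pdcd1lg2 and Entpd1 lie at 0.

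None of the 6 genes reached a 2-fold difference in either direction (a log2 ratio of 1 or -1). Among all detected genes 4.95% were at least 2-fold higher and 2.14% at least 2-fold lower in co-culture, so a count of 0 among 6 lies near the background. After the co-culture values were divided by an unweighted TMM scaling factor, the background was 2.80% higher and 3.39% lower, and the count among the 6 remained 0. Nt5e and Cd24a were close to the limit, and both passed it when the pseudocount was 0.1, a setting under which 7.87% of detected genes were at least 2-fold higher.

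**Figure D2:**
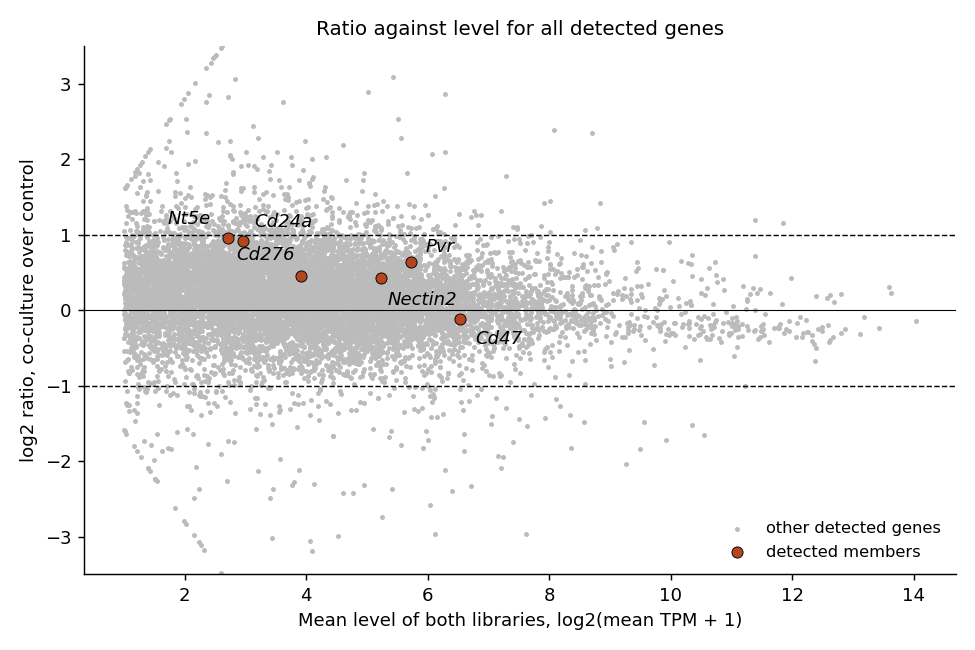
Log2 ratio of co-culture over control against the mean level of both libraries for the 11258 detected genes (grey), with the 6 detected members in red. Dashed lines mark 2-fold, and 47 genes lie beyond the vertical axis, which ends at 3.5 in each direction. Nt5e and Cd24a sit just below the upper line, and Cd47 sits below 0.

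Promoter windows from RefSeq (build GRCm38.p6, 250 bases before to 50 after the annotated start) were on hand for 8 of the 10 genes. The detected genes Cd24a and Pvr had none. The windows of 5 genes are shown because they contrast 3 detected genes with both PD-1 ligands. They span chr16:49855404-49855703 on the plus strand for Cd47, chr9:58554984-58555283 on the minus strand for Cd276, chr9:88327359-88327658 on the plus strand for Nt5e, chr19:29367188-29367487 on the plus strand for Cd274 and chr19:29410669-29410968 on the plus strand for Pdcd1lg2. Capitals mark CpG dinucleotides, a feature looked at after the sequences had been seen.
Cd47: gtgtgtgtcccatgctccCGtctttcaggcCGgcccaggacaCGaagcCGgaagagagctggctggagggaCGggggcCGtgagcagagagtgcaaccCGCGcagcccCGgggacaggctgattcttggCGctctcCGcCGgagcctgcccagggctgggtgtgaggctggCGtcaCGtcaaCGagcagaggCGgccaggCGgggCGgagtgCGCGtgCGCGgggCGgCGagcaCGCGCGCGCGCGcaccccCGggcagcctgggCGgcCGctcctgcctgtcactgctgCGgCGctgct
Cd276: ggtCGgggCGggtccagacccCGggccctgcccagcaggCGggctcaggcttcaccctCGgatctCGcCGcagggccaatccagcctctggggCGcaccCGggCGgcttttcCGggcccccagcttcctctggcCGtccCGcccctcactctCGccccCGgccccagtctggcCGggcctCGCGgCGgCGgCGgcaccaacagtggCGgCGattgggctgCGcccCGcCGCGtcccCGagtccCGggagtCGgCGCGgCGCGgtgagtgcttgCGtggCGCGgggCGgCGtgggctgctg
Nt5e: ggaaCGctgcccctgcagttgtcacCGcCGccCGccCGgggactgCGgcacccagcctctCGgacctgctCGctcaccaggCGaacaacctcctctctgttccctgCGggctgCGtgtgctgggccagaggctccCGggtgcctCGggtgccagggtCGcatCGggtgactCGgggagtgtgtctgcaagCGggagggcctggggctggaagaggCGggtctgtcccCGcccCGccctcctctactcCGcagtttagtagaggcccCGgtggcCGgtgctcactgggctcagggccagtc
Cd274: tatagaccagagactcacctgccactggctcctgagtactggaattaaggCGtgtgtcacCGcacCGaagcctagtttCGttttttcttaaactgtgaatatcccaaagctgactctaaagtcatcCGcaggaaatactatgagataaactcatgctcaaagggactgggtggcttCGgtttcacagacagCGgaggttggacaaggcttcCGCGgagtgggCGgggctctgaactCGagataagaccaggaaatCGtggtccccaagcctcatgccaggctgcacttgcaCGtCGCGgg
Pdcd1lg2: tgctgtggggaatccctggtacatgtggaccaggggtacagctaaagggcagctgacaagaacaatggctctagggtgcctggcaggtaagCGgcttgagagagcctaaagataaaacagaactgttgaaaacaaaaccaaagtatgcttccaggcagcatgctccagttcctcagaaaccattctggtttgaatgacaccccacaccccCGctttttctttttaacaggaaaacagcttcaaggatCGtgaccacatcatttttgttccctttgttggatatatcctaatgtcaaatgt

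Among the detected genes that had a window, Cd47, Cd276, Nt5e and Nectin2, all held more CpG than the PD-1 ligands. Cd47 had 35 CpG and 74.0% GC, Cd276 had 39 CpG and 78.3% GC, Nt5e had 23 CpG and 71.0% GC, and Nectin2 had 20 CpG and 62.7% GC. Cd274 had 15 CpG and 52.7% GC, Pdcd1lg2 had 3 CpG and 46.0% GC, and Vtcn1 had 5 CpG and 53.7% GC. Entpd1, listed at 0, had 23 CpG in the first of its 2 windows and 10 in the second, so composition did not follow the level in every gene. The median over 32851 windows was 7 CpG and 52.7% GC.

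Motifs were searched on both strands. ACGTG, the core of the hypoxia response element, was present in the windows of Cd47 and Cd274 and in 19.6% of all windows. TGANTCA, the AP-1 motif, was present in that of Vtcn1 and in 7.81% of all windows. A loose NF-kB core (3 G, any 5 bases, 2 C) was present in those of Pdcd1lg2, Cd276, Nectin2 and Nt5e and in 50.8% of all windows. The core of the interferon-stimulated response element and TTCNNNGAA, the STAT motif, were in none of the members' windows, against 3.44% and 8.30% of all windows. Overlapping matches were counted, and a match describes letters only. The RefSeq start of the printed Cd47 window lay 55121 bases from the GENCODE gene start, so that window belongs to a start inside the annotated gene. The distance was 47404 bases for the second window of Entpd1, 910 for Nectin2, 412 for Nt5e, 404 for Cd276 and 17 for Cd274, and it was 0 for Pdcd1lg2, Vtcn1 and the first window of Entpd1.

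Cd47, the ligand of SIRPα, had the only lower value among the detected members. It (ENSMUSG00000055447, chromosome 16 of GRCm38, 49800533 to 49915010) had 88.3 TPM in co-culture and 95.8 TPM in the control, a log2 ratio of -0.12. The ratio was negative under all 7 other pseudocounts and scalings tried, from -0.33 to -0.10. As deposited its log2 ratio was the smallest in size of the 6 genes, while after the TMM factor those of Nectin2 (0.21) and Cd276 (0.24) were smaller. In bulk RNA, a lower level per cell and fewer cells that express a gene cannot be told apart. In co-culture 1317 genes had a higher level than Cd47, and in the control 1182 did.

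Cd24a, which encodes a small lipid-anchored sialoglycoprotein, had 9.24 TPM in co-culture and 4.43 TPM in the control, a log2 ratio of 0.92 and a plain TPM ratio of 2.09. It (ENSMUSG00000047139) lies on chromosome 10 from 43578284 to 43584265. A ratio at least as high was found in 6.48% of detected genes. Cd24a amounted to 10.5% of the Cd47 level in co-culture and 4.62% in the control, a log2 difference of 1.18. Most of that was the plain log2 ratio of Cd24a itself (1.06), and the lower value of Cd47 added little. Such a quotient within a library does not depend on how the libraries were scaled. Of the 31-base words in the annotated Cd24a transcripts, 4.98% also occur in other annotated genes. Of these 127 words, 109 occur in a gene that had no row and 25 in Gm15352. Whether reads were divided between genes was not tested.

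Among the genes that act beside these signals, calreticulin was lower and a pair of secreted proteins was higher by more than 2-fold. The list of CD47 and engulfment partners had 14 of 18 genes detected, 11 with higher and 3 with lower values in co-culture and a median log2 ratio of 0.26. Stc1, a secreted glycoprotein that retains calreticulin inside the cell, had 5.57 TPM in co-culture and 0.71 TPM in the control (log2 ratio 1.94), a difference under 2-fold with a pseudocount of 5. Thbs1, thrombospondin 1, another CD47 ligand, had a log2 ratio of 1.50. Calr, the gene of calreticulin, which promotes engulfment when it reaches the cell surface, had 397 TPM in co-culture and 1107 TPM in the control (log2 ratio -1.48). Calreticulin is also an ER chaperone. Xkr8, a scramblase that exposes phosphatidylserine on dying cells, had 1.19 TPM in co-culture and 2.80 TPM in the control (log2 ratio -0.80). Qpctl, the enzyme that modifies the CD47 terminus bound by SIRPα, had 8.35 TPM in co-culture and 5.02 TPM in the control (log2 ratio 0.64).

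The sialic acid pathway, which builds the sugar that Siglec receptors read on CD24, had 15 of 17 genes detected, 10 with higher and 5 with lower values and a median of 0.28. The sialyltransferase gene St3gal1 was the only one past 2-fold, at 53.8 TPM in co-culture and 26.3 TPM in the control (log2 ratio 1.01), and it was under the limit after the TMM factor, after the median ratio centring and with a pseudocount of 5. St3gal2 and St6gal1, also sialyltransferases, had log2 ratios of 0.93 and 0.90. Gne, which starts sialic acid synthesis, was lower, at 9.23 TPM in co-culture and 16.5 TPM in the control.

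The PD-1 ligands were scarce in both conditions. Cd274 (ENSMUSG00000016496, chromosome 19, 29367455 to 29388095) had 0.68 TPM in co-culture and 0.51 TPM in the control, below the detection limit of 1 TPM. Its level amounted to 1.07% of that of Pvr in co-culture and 1.25% in the control. An antisense gene overlaps Cd274, and 14.6% of the 31-base words in its annotated transcript occur in other annotated genes. Pdcd1lg2 (ENSMUSG00000016498), whose start lies 22823 bases beyond the end of Cd274, was listed at 0 in both libraries. The table is rounded to 2 decimals, so a 0 may stand for a smaller value. Depth is unknown, so no limit of detection can be given.

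Genes that control PD-L1 were detected although Cd274 was not. All 14 genes of its transcription inputs were detected, 9 with higher and 5 with lower values, a median of 0.18 and 1 gene at least 2-fold higher. That gene was Jak2, a kinase of the interferon-gamma receptor and a neighbour of Cd274 on chromosome 19, with 17.8 TPM in co-culture and 6.90 TPM in the control (log2 ratio 1.25), a difference under 2-fold with a pseudocount of 5. The receptor gene Ifngr2 had a log2 ratio of 0.83. Irf1, a transcription factor further along the pathway, had 21.4 TPM in co-culture and 19.6 TPM in the control (log2 ratio 0.13). Myc had a log2 ratio of -0.87, and after the TMM factor it was the 1 gene of the list at least 2-fold lower. In the list of PD-L1 protein turnover all 12 genes were detected and none was 2-fold different, with a median of 0.22. Cmtm6, which keeps PD-L1 from degradation, had 17.4 TPM in co-culture and 10.4 TPM in the control (log2 ratio 0.69). Cmtm4, its relative, and Gsk3b, a kinase that marks PD-L1 for degradation, had log2 ratios of 0.52 and -0.44.

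Of the other B7 family members in the set, Cd276 was moderately expressed and Vtcn1 was not found. Cd276 (ENSMUSG00000035914, chromosome 9, 58524298 to 58555437) had 16.4 TPM in co-culture and 11.8 TPM in the control, a log2 ratio of 0.45. A ratio at least as high was found in 27.0% of detected genes. Its 5′ end overlaps Gm10657 on the other strand, which had 0.12 TPM in co-culture and 0.06 TPM in the control. Of the 31-base words in the annotated Cd276 transcripts, 10.5% also occur in Gm10657. Vtcn1 (ENSMUSG00000051076) on chromosome 3 from 100825459 to 100896922 was listed at 0 in both. Among 12 other genes of B7, butyrophilin and TNF family ligands only Vsir and Tnfsf9 were detected, and Cd80 and Cd86, the ligands of CD28, were listed at 0 in both libraries. Tnfsf9 (4-1BB ligand), a costimulatory ligand, had 35.8 TPM in co-culture and 15.0 TPM in the control, a log2 ratio of 1.21, which was under 2-fold after the TMM factor. It shares 12.9% of its 31-base words with other annotated genes, chiefly the overlapping Gm11110, which had 12.5 TPM in co-culture and 7.60 TPM in the control. Vsir, the gene of the inhibitory ligand VISTA, had 3.70 TPM in co-culture and 2.92 TPM in the control.

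Pvr and Nectin2 were the most abundant members after Cd47, and both had higher values in co-culture. Pvr (ENSMUSG00000040511, chromosome 7, 19903578 to 19921160) had 63.7 TPM in co-culture and 40.7 TPM in the control, a log2 ratio of 0.63. Nectin2 (ENSMUSG00000062300, the same chromosome, 19716644 to 19750483) had 41.9 TPM in co-culture and 30.9 TPM in the control, a log2 ratio of 0.43. Ratios at least as high were found in 16.1% of detected genes for Pvr and 28.9% for Nectin2. The summed level of the pair was 106 TPM in co-culture and 71.6 TPM in the control. Relative to Cd47, Pvr stood at 72.1% in co-culture and 42.5% in the control, and Nectin2 at 47.5% in co-culture and 32.3% in the control. The Pvr to Nectin2 quotient was 1.52 in co-culture and 1.32 in the control.

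The other nectins and nectin-like genes had 4 of 8 members detected, 3 with higher values, none 2-fold different and a median of 0.47. Nectin1, a cell adhesion molecule, had 3.65 TPM in co-culture and 2.13 TPM in the control (log2 ratio 0.57). Afdn, the gene of afadin, which links nectins to actin, had 80.0 TPM in co-culture and 56.5 TPM in the control (0.49). Cadm4 had a ratio of 0.44. Nectin3 had 5.73 TPM in co-culture and 5.76 TPM in the control.

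The 2 steps of extracellular adenosine production differed in level, with Nt5e expressed and Entpd1 not found. Nt5e (ENSMUSG00000032420, chromosome 9, 88327197 to 88372092) had 7.70 TPM in co-culture and 3.50 TPM in the control. Its log2 ratio of 0.95 was the highest of the 10 genes, with a plain TPM ratio of 2.20. A ratio at least as high was found in 5.82% of detected genes, and among detected genes with a mean under 10 TPM 7.03% were at least 2-fold higher. Of all annotated 31-base words of Nt5e, 0.39% occur in other genes. Nt5e and Cd24a had close quotients, 0.83 in co-culture and 0.79 in the control. Entpd1 (ENSMUSG00000048120) on chromosome 19 from 40612366 to 40741602 was listed at 0 in both libraries.

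Other genes of purine handling were split evenly. Of 24 with a row 12 were detected, 6 with higher and 6 with lower values, none past 2-fold, with a median of 0.07. Entpd4 and Entpd6, relatives of CD39 found mainly inside the cell, had log2 ratios of 0.64 and 0.60. P2rx7, a channel gated by extracellular ATP, had 2.22 TPM in co-culture and 3.97 TPM in the control (log2 ratio -0.63). P2ry2 had a ratio of 0.52. The adenosine receptor genes were near 0, with Adora2b at 0.83 TPM in co-culture and 0.37 TPM in the control and Adora2a at 0.14 TPM in co-culture and 0.15 TPM in the control. Among other ectoenzymes that lead to adenosine, Alpl, alkaline phosphatase, had 3.08 TPM in co-culture and 3.09 TPM in the control, while Cd38 was at 0.02 TPM in co-culture and 0 in the control and Enpp1 was at 0.01 TPM in co-culture and 0 in the control.

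Inhibitory ligands outside the set had 4 of 10 members detected, with a median of 0.14 and none past 2-fold. Lgals9, a galectin that binds TIM-3, had 110 TPM in co-culture and 95.0 TPM in the control (log2 ratio 0.21). Tgfb1 had 63.2 TPM in co-culture and 35.2 TPM in the control (0.82). Lgals3, galectin-3, had 1102 TPM in co-culture and 1748 TPM in the control (-0.67). H2-T23, the gene of Qa-1, had a ratio of 0.07. Cd200, Ido1, Ido2 and Tdo2 were listed at 0 in both libraries.

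**Figure D3:**
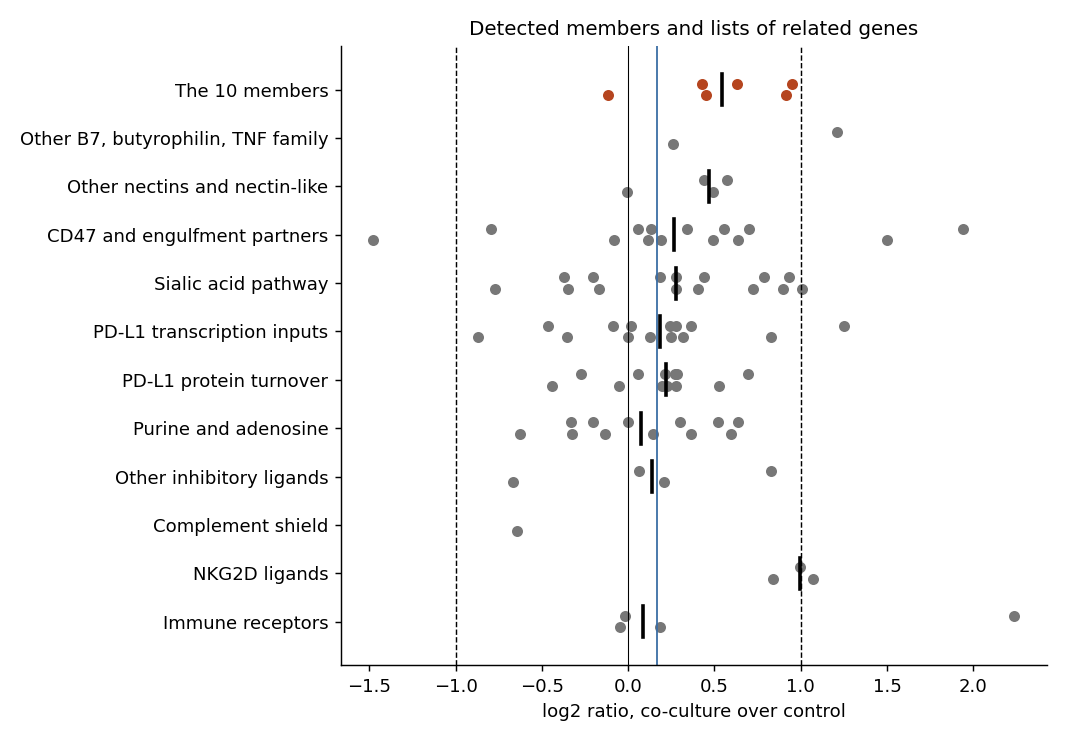
Log2 ratio of co-culture over control for the detected genes of the set (red) and of each list of related genes (grey), 1 point per gene; black bars are medians of lists with at least 3 detected genes, the blue line is the median of all detected genes (0.17) and dashed lines mark 2-fold. The members' median is 0.54, and 8 related genes lie at or past a dashed line. Over all detected genes 4.95% were at least 2-fold higher and 2.14% at least 2-fold lower.

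A list of immune receptors was mostly not detected in the tumour cell libraries, as were most of the 51912 Ensembl genes, of which 11258 were detected. It holds receptors for these ligands and also others, such as Cd28 and Havcr2, whose ligands lie outside the set. Of 12 receptor genes 4 were detected and 6 were listed at 0 in both libraries, including Sirpa, Pdcd1, Cd226 and Cd96. Siglecg had 1.57 TPM in co-culture and 1.60 TPM in the control. Tigit, the receptor for Pvr and Nectin2 that T and NK cells carry, had 77.1 TPM in co-culture and 79.9 TPM in the control, levels between those of Cd47 and Pvr. In the same libraries Cd3e, Cd3d, Cd8a, Nkg7 and Ptprc were listed at 0. The nearest protein-coding gene, Zbtb20, lies 6264 bases away and had 0.93 TPM in co-culture and 1.11 TPM in the control, and 8.37% of the 31-base words of Tigit occur in other annotated genes. Where these reads came from was not tested. Cd28, a costimulatory receptor of T cells, had 4.52 TPM in co-culture and 0.17 TPM in the control (log2 ratio 2.24, under 2-fold with a pseudocount of 5), and Havcr2 (TIM-3) had 2.89 TPM in co-culture and 2.42 TPM in the control.

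All member ratios kept their sign under the other settings. Across 4 pseudocounts, including none, and 4 other scalings, Nt5e ranged from 0.58 to 1.14, Cd24a from 0.59 to 1.06, Pvr from 0.42 to 0.66, Cd276 from 0.24 to 0.48 and Nectin2 from 0.21 to 0.45. With a pseudocount of 5 the order of the ratios differed, with Cd24a and Pvr at 0.59, Nt5e at 0.58, Nectin2 at 0.39 and Cd276 at 0.35. The median ratio centring shifted all plain ratios by -0.12 and the TMM factor by -0.22 on the log2 scale, and the median over all detected genes was then 0.06 and -0.03.

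**Figure D4:**
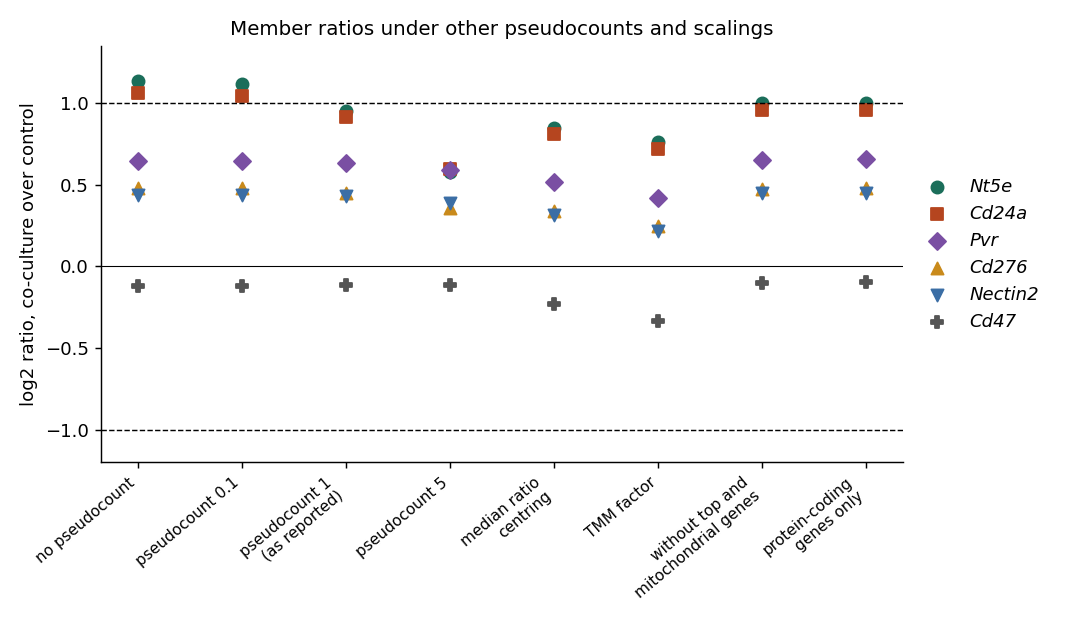
Log2 ratio of co-culture over control for the 6 detected members under other pseudocounts and scalings; dashed lines mark 2-fold. Nt5e and Cd24a lie near the upper line and cross it with a pseudocount of 0.1 or none, and Cd47 lies below 0 throughout.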

How the data were processed

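The data were 2 RNA sequencing libraries, 1 per condition, grouped by their treatment label. The authors deposited 1 table of TPM values, rounded to 2 decimals. HISAT2 2.1.0, RSEM 1.2.31 and the build GRCm38.p5 appear, without roles, in the submitters' processing notes; the annotation release, the strandedness and any filter are not stated there. TPM keeps no depth, so depth is unknown and no counting intervals were computed. The table has 52796 rows, of which 51912 carry Ensembl identifiers and were used; 51633 of them matched a GENCODE M21 symbol. Positions are from GENCODE M21 (GRCm38, 1-based). Promoter windows are from RefSeq (GRCm38.p6).

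Ratios, the 1 TPM mean filter and the 2-fold rule were computed with Python 3.11.15, pandas 2.3.3 and NumPy 2.4.6. With 1 library per condition no test was made. Shared sequence was counted as 31-base words found in transcripts of other annotated genes. The members and the gene lists (11 of related genes, 7 of cell type markers) were chosen with earlier results of these data known. From each related list up to 4 detected genes with the largest absolute ratio were named, together with direct partners of the members and the highest markers; other genes were named after their values were seen, and some genes that this rule selects are not reported here. A planned comparison of member proteins was not made. The purine list had 1 symbol, Pnp, without a match, and where a symbol had several rows the more abundant was used. Alternatives are given in the closing section.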

Additional observations from a re-analysis of the deposited data

How the results depend on the processing

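No paired analysis was possible because each condition had 1 library. The number of detected members at least 2-fold higher was 0 as reported; it was 2 (Nt5e and Cd24a) with a pseudocount of 0.1 or, in a check chosen after seeing the data, with the plain TPM ratio, under which 8% of detected genes were at least 2-fold higher. It was 1 (Nt5e) after rescaling without mitochondrially encoded and the 20 most abundant genes and after rescaling to protein-coding genes only. No setting gave a member 2-fold lower. The number with higher values, 5, became 3 with a minimum mean of 10 TPM, which leaves 4 members. The members' median of 0.54 was 0.29 with no filter, which adds the genes at 0, 0.44 with the 10 TPM minimum, 0.43 after centring on the median ratio and 0.33 after the TMM factor. Related genes past 2-fold numbered 8, namely Stc1, Thbs1, Calr, St3gal1, Jak2, Tnfsf9, Ulbp1 and Cd28. Of the 14 detected CD47 and engulfment partners 2 were higher and 1 was lower, and each other list had at most 1. Over all detected genes 4.95% were at least 2-fold higher and 2.14% at least 2-fold lower. With a pseudocount of 5 there were 3 related genes past 2-fold, and past 4-fold there was 1. After the TMM factor or the median ratio centring there were 6. After the TMM factor the 6 included Myc, while St3gal1, Tnfsf9 and Ulbp1 were under the limit. The background of genes at least 2-fold higher was 1.77% with a pseudocount of 5. No member ratio changed sign under the alternatives. Depth is unknown, so the precision of Cd274 and other values near 0 cannot be stated.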

Other observations

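Ligands of NKG2D, the activating receptor with which NK cells recognise stressed cells, had higher values in co-culture. Of 5 genes 3 were detected, with a median log2 ratio of 0.99. Ulbp1 had 25.5 TPM in co-culture and 11.6 TPM in the control (log2 ratio 1.07), H60b had 9.94 TPM in co-culture and 4.49 TPM in the control (0.99), and Raet1e had 9.67 TPM in co-culture and 4.96 TPM in the control (0.84). Ulbp1 was the only one past 2-fold, though not after the TMM factor, the median ratio centring or with a pseudocount of 5, and 4.95% of all detected genes were. Across the alternatives the median of the list ranged from 0.65 to 1.13. The Raet1 genes are a family of similar genes. On chromosome 10 the annotated span of Raet1e (22158569 to 22374139) contains those of H60b (22158586 to 22288849) and Raet1d. The values of H60b and Raet1e therefore come from overlapping annotated spans and may not be separate observations. The effect of shared reads on these values was not tested.

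Genes that shield cells from complement were mostly not detected, as were most of the 51912 Ensembl genes, of which 11258 were detected. Of 6 genes only Cr1l, the mouse regulator Crry, was detected, at 20.5 TPM in co-culture and 32.6 TPM in the control (log2 ratio -0.64), while Cd55 was listed at 0 in both libraries and Cd59a had 0.10 TPM in co-culture and 0 in the control.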
